A study of Mus musculus with 8 samples.

Results

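The 9 interferon response genes Isg15, Ifit1, Ifit3, Irf1, Irf7, Irf9, Stat2, Bst2 and Ifih1 were taken by symbol from both whole-transcriptome tables of the study, and all 9 were found in each. The table of RasV12 cells held 23746 rows and that of wild-type cells 23744. RNA of ASZ, a cell line from mouse basal cell carcinoma, was sequenced as 8 libraries, 2 for each of 4 groups: RasV12-expressing ASZ cells given CBD, the same cells given DMSO, wild-type ASZ cells given CBD and wild-type ASZ cells given DMSO. DMSO is the vehicle, and RasV12 is a mutant Ras that stays switched on. The labels do not spell out CBD, give no dose or time, do not name the Ras gene, and do not say whether the RasV12 cells are 1 clone or whether the 2 libraries of a group came from separate cultures. All 4 groups share the tumour line, and the title of the series concerns primary cilia and a switch between Hedgehog and Ras/MAPK signalling. Each gene has 1 FPKM value (fragments scaled to transcript length and depth) for each group and a deposited p-value of CBD against DMSO, so no SD between libraries can be given.

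Interferons are secreted proteins that cells release when sensors such as Ifih1 (MDA5) meet double-stranded RNA. Type I interferons bind the receptor Ifnar1/Ifnar2, whose kinases Jak1 and Tyk2 activate Stat2. With Irf9, the DNA-binding subunit, Stat2 is part of the factor ISGF3, which binds interferon-stimulated response elements (ISREs) and turns on Isg15, the Ifit genes, Bst2 and Irf7. Interferon gamma acts on genes with gamma-activated sites (GAS), and Irf1 is a known target. Keratinocytes, from whose lineages basal cell carcinoma arises, express these pathways.

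Both response elements can be looked for in the promoters of the 9 genes. A script searched the RefSeq windows of all genes (build GRCm38.p6, 250 bases before to 50 bases after each transcript start) on both strands for an ISRE core, GAAANNGAA, and for a GAS, TTCNNNGAA, each 9 letters long. All 9 genes had a window. The ISRE core was present for 6 of 9, against 9.76% of 27025 genes, and the GAS for 2 of 9, against 9.55%. The upstream 250 bases follow for Stat2, Irf9 and Bst2, which passed a test, and for Isg15, Ifit1 and Irf1, which passed none and show how the motifs are arranged, 5′ to 3′ on the strand of the gene, with the motif letters in capitals (Irf9 has none). Stat2 lies at chr10:128270248-128270497, plus strand, Irf9 (the first of its 2 windows) at chr14:55603735-55603984, plus strand, Bst2 at chr8:71537473-71537722, minus strand, Isg15 at chr4:156200819-156201068, minus strand, Ifit1 at chr19:34640639-34640888, plus strand and Irf1 at chr11:53769764-53770013, plus strand.
Stat2: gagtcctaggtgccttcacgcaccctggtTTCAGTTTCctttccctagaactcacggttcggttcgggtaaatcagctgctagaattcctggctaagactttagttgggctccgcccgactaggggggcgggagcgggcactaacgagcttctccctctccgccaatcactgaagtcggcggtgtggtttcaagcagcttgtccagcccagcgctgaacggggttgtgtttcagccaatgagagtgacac
Irf9: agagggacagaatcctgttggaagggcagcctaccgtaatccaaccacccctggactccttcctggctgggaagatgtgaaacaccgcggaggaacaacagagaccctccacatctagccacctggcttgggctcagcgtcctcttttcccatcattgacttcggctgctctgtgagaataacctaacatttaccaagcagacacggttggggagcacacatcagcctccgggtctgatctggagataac
Bst2: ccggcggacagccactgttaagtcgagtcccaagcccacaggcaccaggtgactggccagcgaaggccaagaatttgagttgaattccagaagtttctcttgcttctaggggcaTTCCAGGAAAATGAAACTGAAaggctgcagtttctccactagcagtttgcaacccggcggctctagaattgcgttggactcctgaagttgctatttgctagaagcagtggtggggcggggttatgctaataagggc
Isg15: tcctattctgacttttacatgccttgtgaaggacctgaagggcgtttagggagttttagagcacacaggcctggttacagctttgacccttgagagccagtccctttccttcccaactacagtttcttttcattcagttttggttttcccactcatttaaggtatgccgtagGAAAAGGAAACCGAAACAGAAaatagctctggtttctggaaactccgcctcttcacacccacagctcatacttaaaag
Ifit1: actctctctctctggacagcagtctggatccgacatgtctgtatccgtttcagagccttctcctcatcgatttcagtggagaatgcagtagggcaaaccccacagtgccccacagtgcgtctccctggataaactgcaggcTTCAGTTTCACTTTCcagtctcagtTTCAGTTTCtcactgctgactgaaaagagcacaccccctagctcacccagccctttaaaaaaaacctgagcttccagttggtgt
Irf1: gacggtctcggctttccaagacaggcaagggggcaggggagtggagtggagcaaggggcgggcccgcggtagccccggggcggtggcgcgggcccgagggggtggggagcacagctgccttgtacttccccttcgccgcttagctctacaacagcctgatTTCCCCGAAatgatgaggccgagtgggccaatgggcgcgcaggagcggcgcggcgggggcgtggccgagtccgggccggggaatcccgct

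Isg15 carried 3 overlapping ISRE cores that began 78, 72 and 66 bases before the start. Ifit1 carried 3 on the opposite strand, at 109, 103 and 84 bases before the start, which is why its printed letters read TTC first, as does the single core of Stat2 at 221 bases before the start. Bst2 held both motifs, a GAS at 136 bases before the start that overlaps the first of its ISRE cores, at 130 and 124. Irf1 held a GAS at 90 bases before the start and no ISRE core. Ifit3 had 3 ISRE cores and Ifih1 had 2, 1 of them after the start, while neither motif lay in the windows of Irf7 and Irf9. A match is a description of the letters and not a measured binding site, and binding was not measured.

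**Figure D1:**
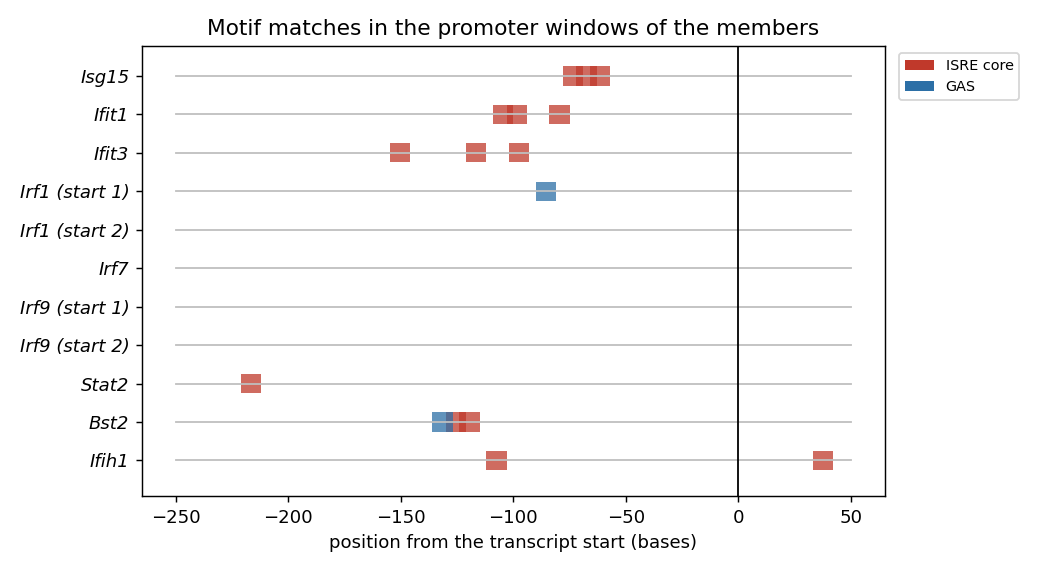
Positions of the ISRE core (red) and GAS (blue) in the promoter windows of the 9 genes; the x axis is the distance in bases from the transcript start, and genes with 2 annotated starts have 2 lines. The ISRE cores of Isg15 lie nearest the start among those upstream of it, that of Stat2 lies 221 bases away, and Irf7 and Irf9 show none.

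Stat2 and Irf9, subunits of ISGF3, were lower with CBD in both lines. Stat2 stood at 1.854 FPKM in RasV12 cells with CBD and 4.55 with DMSO, and at 1.245 FPKM in wild-type cells with CBD and 3.462 with DMSO. Its log2 FPKM ratio was -1.30 ± 0.38 in RasV12 cells (adjusted p 0.0032) and -1.48 ± 0.33 in wild-type cells (adjusted p 2.8e-05). The CBD group was the lower in each line, at 0.407 and 0.36 of the DMSO level. The error after ± is a standard error derived from the deposited p-value, which rests on 2 libraries a group. Adjusted p here means Benjamini-Hochberg over all genes tested at 1 FPKM or more in at least 1 group. In RNA from a whole culture, fewer cells with a transcript and less of it per cell cannot be told apart.

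Irf9 stood at 3.007 FPKM in RasV12 cells with CBD and 6.668 with DMSO. In wild-type cells it stood at 0.9996 FPKM with CBD and 3.067 with DMSO. The log2 ratio was -1.15 ± 0.40 in RasV12 cells (adjusted p 0.012) and -1.62 ± 0.57 in wild-type cells (adjusted p 0.0096). Irf9 therefore passed the test as lower in both lines, beside Stat2. In wild-type cells both calls were lost under some centrings, given here on the log2(FPKM + 1) scale. For Stat2 the change was -0.36 with the median ratio of genes of like transcript length subtracted (adjusted p 0.22), against -0.99 without. For Irf9 it was -0.84 (adjusted p 0.052), and -0.79 with the median of all genes subtracted (adjusted p 0.063), against -1.02 without. In RasV12 cells both passed under each of the alternatives run.

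The share of genes called lower differed with transcript length. The Stat2 transcript is 4397 nt long and that of Irf9 2959 nt. With genes split by length into 10 equal bins, in the bin of Stat2 35.2% were called lower in RasV12 cells and 60.7% in wild-type cells, against 24.4% in RasV12 cells and 42.4% in wild-type cells over all genes. The bin of Irf9 held 23% called lower in RasV12 cells and 37.8% in wild-type cells, below those shares. The part of length in the result was tested only by subtracting the median of each bin, as given above. An overlapping gene, Apof, shares 753 nt with Stat2, and whether reads were counted by strand is not stated, so their reads may not be told apart. The same holds for the overlaps of Isg15 with Gm46878 (80 nt) and of Ifih1 with Gm39839 (3543 nt), both long noncoding RNAs.

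**Figure D2:**
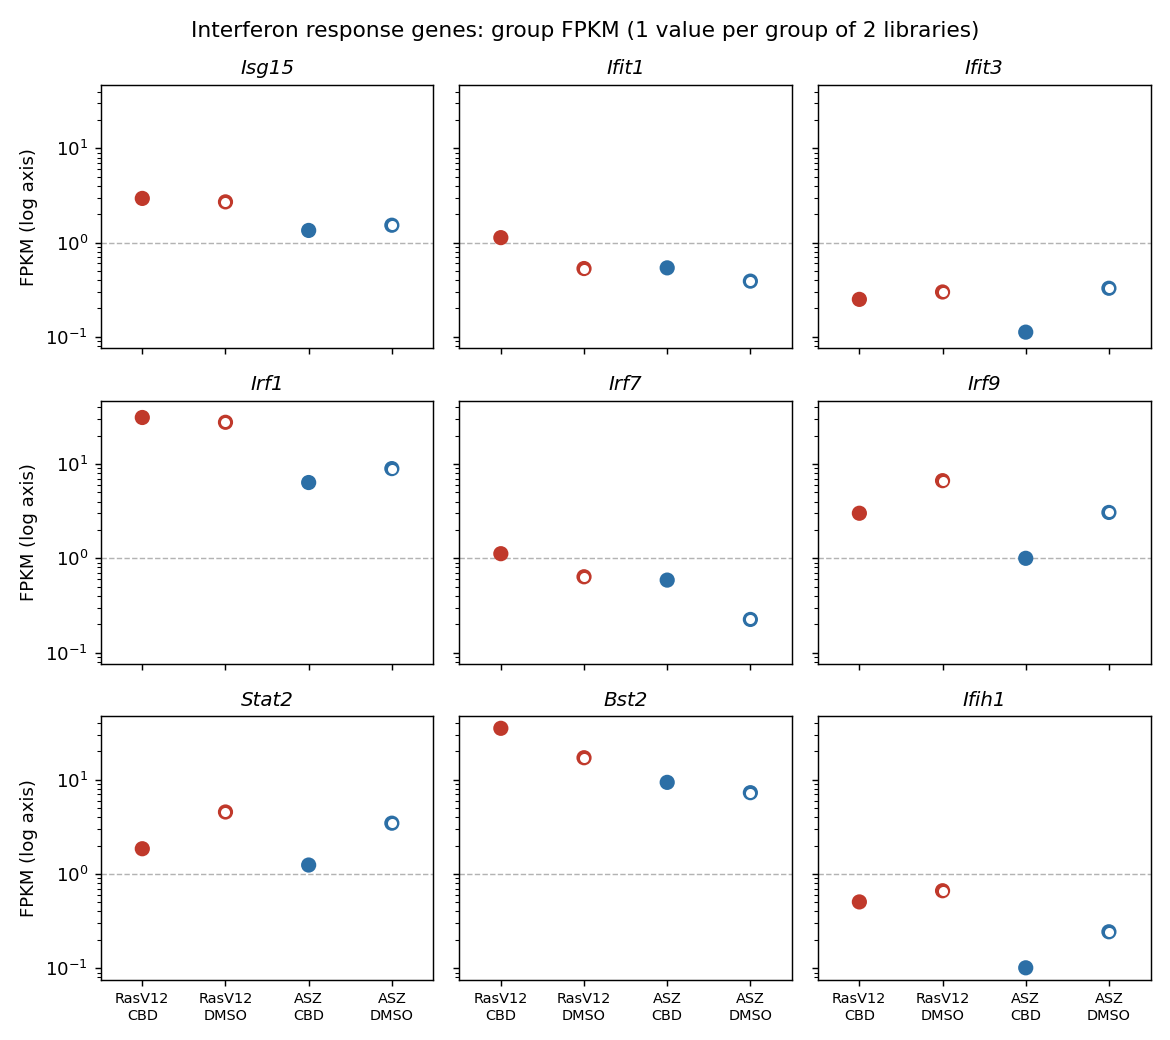
FPKM of each of the 9 genes in the 4 groups (log axis, 1 value per group of 2 libraries, so no error bar); filled circles are CBD, open circles DMSO, red RasV12 cells and blue wild-type ASZ cells, and the dashed line marks 1 FPKM. Stat2 and Irf9 sit lower with CBD in both lines, Irf1 and Bst2 sit highest in RasV12 cells, and Ifit3 and Ifih1 stay under the line throughout.

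Irf1 and Irf7 are transcription factors that act beside ISGF3. Irf1 had 31.22 FPKM in RasV12 cells with CBD and 27.77 with DMSO (log2 ratio 0.17 ± 0.28, adjusted p 0.65). In wild-type cells it had 6.371 FPKM with CBD and 8.955 with DMSO (-0.49 ± 0.31, adjusted p 0.17). Neither difference passed, and the sign in RasV12 cells turned with the scaling of the groups. Irf7, which amplifies interferon production, had 1.119 FPKM in RasV12 cells with CBD and 0.6366 with DMSO (log2 ratio 0.81 ± 0.60, adjusted p 0.27). In wild-type cells it had 0.5869 FPKM with CBD and 0.2244 with DMSO, both under 1 FPKM, with a deposited p of 0.137. The CBD value of Irf7 was the higher in each line, without passing.

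Of the effector genes, Bst2 (tetherin), which holds budding virus particles to the cell surface, passed as higher with CBD in RasV12 cells. It had 35.18 FPKM with CBD and 17.14 with DMSO (log2 ratio 1.04 ± 0.37, adjusted p 0.016). In wild-type cells Bst2 had 9.388 FPKM with CBD and 7.296 with DMSO (0.36 ± 0.37, adjusted p 0.41). Its transcript is 792 nt long, in the bin of the shortest genes, where 30% were called higher in RasV12 cells. With the median of like transcript length subtracted, its adjusted p in RasV12 cells was 0.35, with equal FPKM sums 0.34 and with equal fragment mass 0.17, so the call in RasV12 cells was lost under these 3 alternatives.

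Isg15, a ubiquitin-like protein that is attached to other proteins, had 2.944 FPKM in RasV12 cells with CBD and 2.705 with DMSO (log2 ratio 0.12 ± 0.58, adjusted p 0.89). In wild-type cells it had 1.346 FPKM with CBD and 1.529 with DMSO (-0.18 ± 0.64, adjusted p 0.83). Its 756 nt transcript gave an estimated 48 fragments with CBD and 69 with DMSO in RasV12 cells, and 28 with CBD and 33 with DMSO in wild-type cells, over both libraries of a group. At that depth a 2-fold difference of Isg15 lies within 2 standard errors. Its sign turned under other scalings in both lines.

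Ifit1 binds RNA whose ends mark it as foreign. It had 1.129 FPKM in RasV12 cells with CBD and 0.5305 with DMSO (log2 ratio 1.09 ± 0.60, adjusted p 0.13). In wild-type cells it had 0.5393 FPKM with CBD and 0.3899 with DMSO (deposited p 0.414). The whole of Ifit1 lies within the span of Ifit1bl1, over 9121 nt, so their reads may not be told apart. The CBD value was the higher in each line, and no test passed.

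Ifit3, which in human cells stabilises IFIT1, and Ifih1, the RNA sensor MDA5, were under 1 FPKM in every group. Ifit3 had 0.2497 FPKM in RasV12 cells with CBD and 0.2991 with DMSO. In wild-type cells Ifit3 had 0.1121 FPKM with CBD and 0.3276 with DMSO (deposited p 0.101). An estimated 5 to 18 fragments stood behind each group's value of Ifit3, and its near-identical neighbour Ifit3b was at 0.06795 FPKM or less. Ifih1 had 0.5053 FPKM in RasV12 cells with CBD and 0.6642 with DMSO, and 0.101 with CBD and 0.2436 with DMSO in wild-type cells (deposited p 0.0731). The authors' tables gave no test for these genes in RasV12 cells, and neither gene was called in any comparison.

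The calls of the 9 genes were set beside those of all genes. In RasV12 cells 7 of the 9 reached 1 FPKM with a test, of which 1 was higher (Bst2) and 2 lower (Stat2 and Irf9). The background was 18.7% higher and 24.4% lower of 11070 genes, so that 1 and 2 of 7 are near it. In wild-type cells 5 of the 9 did, of which 0 were higher, with 0 also at an unadjusted p under 0.05 by the authors' test, and 2 lower. There the background was 14% higher and 42.4% lower of 10696 genes, near the 2 of 5 seen. The median change of those genes on the log2(FPKM + 1) scale was 0.16 in RasV12 cells and -0.43 in wild-type cells, against -0.01 and -0.37 over all genes. In RasV12 cells Ifit1 and Irf7 reached 1 FPKM only with CBD, so they could enter only as higher with CBD. In wild-type cells Irf9 reached it only with DMSO. This choice favours a higher median in RasV12 cells and a lower one in wild-type cells, and its part was not tested.

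**Figure D3:**
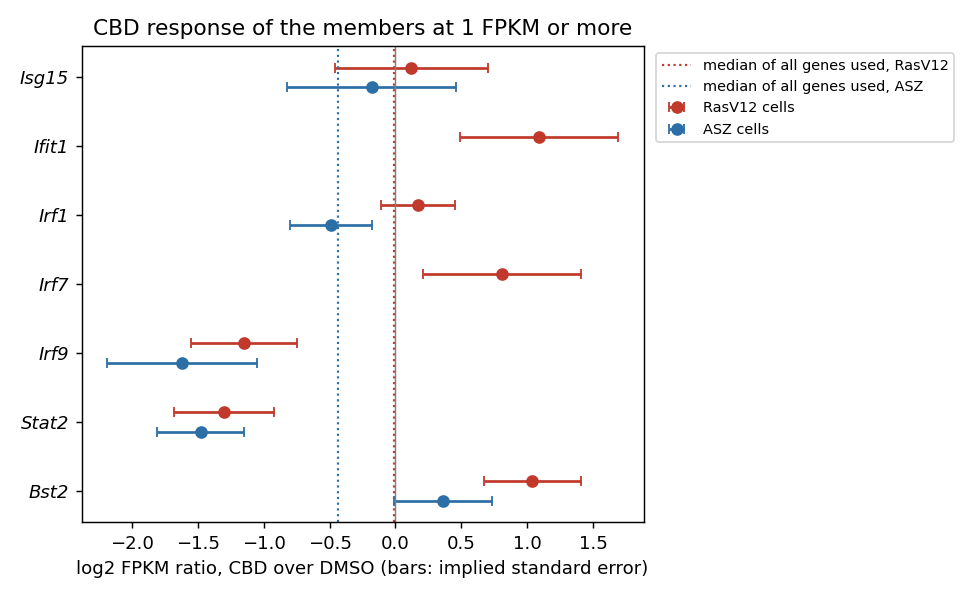
log2 FPKM ratio of CBD over DMSO for the genes at 1 FPKM or more in RasV12 (red) and wild-type ASZ cells (blue); bars are the implied standard error, and dotted lines mark the median of all genes used in each line (-0.01 and -0.44). Stat2 and Irf9 lie below -1 in both lines, and the bar of Isg15 spans 0 in both.

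Whether CBD acted differently on these genes in the 2 lines was tested for the 5 that could be set side by side. None of the 5 differed at an adjusted p under 0.05 or at an unadjusted p under 0.05, by a two-sided normal test on the implied standard errors, where 9.23% of 10399 genes did after adjustment. The RasV12 response minus that of wild-type cells was 0.67 ± 0.52 for Bst2 (adjusted p 0.50), 0.66 ± 0.42 for Irf1 (adjusted p 0.38) and 0.47 ± 0.69 for Irf9 (adjusted p 0.77). For Isg15 it was 0.31 ± 0.87 and for Stat2 0.18 ± 0.51. All 5 were above 0, and the median log2 ratio of all genes was -0.01 in RasV12 cells and -0.44 in wild-type cells. An interval of 2 standard errors around each of the 5 values reaches past 1 on the log2 scale, so the lines were not shown to respond alike.

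The level of these genes in the 2 lines, which the tables allow only as a description, was higher in RasV12 cells for Irf1 and Bst2. Irf1 had 27.77 FPKM in RasV12 cells and 8.955 in wild-type cells under DMSO, and 31.22 in RasV12 cells and 6.371 in wild-type cells under CBD. Bst2 had 17.14 FPKM in RasV12 cells and 7.296 in wild-type cells under DMSO, and 35.18 in RasV12 cells and 9.388 in wild-type cells under CBD. The levels were centred on the median of each group, since the tables were made separately, and on that log2(FPKM + 1) scale the RasV12 level of Irf1 was higher by 1.36 under DMSO and 1.50 under CBD, and that of Bst2 by 0.96 and 1.18. Irf9 stood 0.74 higher under DMSO and 0.38 under CBD, and Isg15 0.38 and 0.13. Ifit1, Irf7 and Stat2 lay between -0.28 and 0.25. Before centring, the FPKM of these 3 genes was higher in RasV12 cells under both agents. The ratio ran from 1.31-fold (Stat2 under DMSO) to 2.84-fold (Irf7 under DMSO), so their values below 0 depend on the centring. Of the 7 genes at 1 FPKM or more in some group, 6 were above 0 under DMSO and 4 under CBD, against 5423 and 4357 of 11200 genes. Ifit1 and Irf7 reached 1 FPKM only in RasV12 cells with CBD, and entered these counts through that group. At least 2-fold higher were 1 of 7 under DMSO (background 3.81%) and 2 of 7 under CBD (background 3.36%). No test was possible, and the expression of RasV12 cannot be told apart from other differences between the lines.

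In every group Irf1 and Bst2 were the highest of the 9, Bst2 ahead with CBD and Irf1 with DMSO in both lines. Under DMSO Irf9 and Stat2 followed in both lines, with Stat2 ahead in wild-type cells and Irf9 in RasV12 cells. With CBD Isg15 passed Stat2 in both lines. Ifit3 was the lowest in both groups of RasV12 cells, with 0.2497 FPKM under CBD and 0.2991 under DMSO. In wild-type cells Ifih1 was the lowest with CBD and Irf7 with DMSO. Without values per library it cannot be said which neighbours in this order differ beyond their spread.

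Likeness over the 4 groups was taken as the root mean square distance of log2(FPKM + 1), each gene centred on its own mean. The groups were not centred on their medians here. Among 75 other genes of the interferon lists, the one with the most similar pattern was named for each of the 7 genes. It was Ddx58, the RNA sensor RIG-I, for Isg15 (0.06), Usp18, a protease that removes Isg15, for Ifit1 (0.11), Ifnar2 for Irf7 (0.14), Jak2 for Irf9 (0.12) and Ticam1, the adaptor of Tlr3, for Stat2 (0.07). Tap2, a peptide transporter of antigen presentation, was nearest to both Bst2 (0.16) and Irf1 (0.35). With 4 points a gene this describes the likeness only.

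Upstream of the 9 genes, ligands were scarce, and the calls of the receptor, factor and sensor genes were falls. The shares called higher and lower over all genes, against which the counts of each list are to be read, were 18.7% and 24.4% in RasV12 cells and 14% and 42.4% in wild-type cells. Of 10 ligand genes, 0 reached the test in RasV12 cells and 1, Ifnb1, in wild-type cells. Ifnb1, a type I interferon, was at 0.4608 FPKM in RasV12 cells with CBD and listed at 0 with DMSO. In wild-type cells Ifnb1 was at 1.078 FPKM with CBD and 0.05291 with DMSO (log2 ratio 4.35 ± 2.16, adjusted p 0.074), which passed before adjustment (deposited p 0.0437) and not after it. An estimated 22 fragments with CBD and 1 with DMSO stood behind these values, and the gene passed as higher with the median of all genes subtracted. Ifna1, Ifna2, Ifna4, Ifna5 and Ifng were listed at 0 in all 4 groups. The other ligands stayed under 1 FPKM. Ifnk was at 0.7373 FPKM in RasV12 and 0.1059 in wild-type cells with CBD, and Ifnl3 at 0.2833 and 0.344, each listed at 0 with DMSO. Ifnl2 was at 0.4299 in wild-type cells with CBD and listed at 0 in the other groups. Ifne was at 0.05565 with CBD and 0.06501 with DMSO in wild-type cells, and at 0 in RasV12 cells.

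Of 9 receptor and Jak kinase genes, 0 rose and 4 (44.4%) fell in RasV12 cells, against 24.4% lower over all genes, and 0 rose and 5 (55.6%) fell in wild-type cells, against 42.4%. At an unadjusted p under 0.05, 1 rose in RasV12 cells and 0 in wild-type cells. Ifnar1, the type I receptor chain that binds Tyk2, fell to 2.852 FPKM in RasV12 cells with CBD, against 6.683 with DMSO (adjusted p 0.00084), and to 3.206 in wild-type cells with CBD, against 5.383 with DMSO (adjusted p 0.0088). Its partner Ifnar2 was at 23.99 FPKM in RasV12 cells with CBD and 15.61 with DMSO (adjusted p 0.12), and at 14.3 with CBD and 10.09 with DMSO in wild-type cells (adjusted p 0.20). Ifngr1, a chain of the interferon gamma receptor, fell in both lines. It was at 2.053 FPKM with CBD and 7.764 with DMSO in RasV12 cells, and at 0.5443 with CBD and 4.809 with DMSO in wild-type cells. Jak2, a kinase of that receptor, fell too, at 3.603 FPKM with CBD and 8.046 with DMSO in RasV12 cells. In wild-type cells Jak2 was at 1.487 FPKM with CBD and 4.841 with DMSO. Ifngr2, the partner chain of Ifngr1, fell in wild-type cells, at 3.71 FPKM with CBD and 6.222 with DMSO (adjusted p 0.037). Jak1 and Tyk2 passed in neither line, with Jak1 at 34.35 FPKM with CBD and 23.07 with DMSO in RasV12 cells, and 18.72 with CBD and 20.88 with DMSO in wild-type cells. In wild-type cells 1 of the 9 rose and 3 fell once the median of all genes was subtracted. Over all 10696 genes 2970 then rose and 3285 fell.

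Of 8 other STAT and IRF genes tested, 0 rose and 5 (62.5%) fell in RasV12 cells, against 24.4% lower over all genes, and 0 rose and 6 (75%) fell in wild-type cells, against 42.4%, with 0 rises also unadjusted by the authors' test. Irf3, the factor that sensors activate first, fell to 5.35 FPKM in RasV12 cells with CBD, against 12.88 with DMSO (adjusted p 0.0027), and to 5.522 in wild-type cells with CBD, against 13.61 with DMSO (adjusted p 0.0012). Irf2, a repressor that binds the same element as Irf1, fell to 4.289 FPKM in RasV12 cells with CBD, against 12.75 with DMSO, and to 2.155 in wild-type cells with CBD, against 6.712 with DMSO. Stat3 fell in RasV12 cells, to 37.19 FPKM with CBD against 61.91 with DMSO. Irf2bp2, a partner of Irf2, fell to 32.21 FPKM in RasV12 cells with CBD, against 49.28 with DMSO, and to 9.709 in wild-type cells with CBD, against 44.25 with DMSO. Its relative Irf2bp1 fell in both lines as well, and Irf2bpl in wild-type cells, to 3.67 FPKM with CBD, against 13.64 with DMSO. With the median of like transcript length subtracted, 1 rose and 3 fell in RasV12 cells and 2 rose and 5 fell in wild-type cells. The receptor and kinase genes then held 1 rise and 4 falls in RasV12 cells, and 2 rises and 3 falls in wild-type cells. Over all genes 1832 then rose and 2205 fell of the 11070 used in RasV12 cells. In wild-type cells 2386 rose and 2586 fell of 10696.

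Of the genes of nucleic acid sensing, 0 rose and 7 of 11 (63.6%) fell in RasV12 cells, against 24.4% over all genes, and 0 rose and 8 of 10 (80%) fell in wild-type cells, against 42.4%, with 0 rises unadjusted by the authors' test. Tlr3, the endosomal receptor of double-stranded RNA, fell to 1.687 FPKM in RasV12 cells with CBD, against 10.22 with DMSO, and to 1.065 in wild-type cells with CBD, against 11.04 with DMSO. Tbk1, the kinase of Irf3, fell to 2.173 FPKM in RasV12 cells with CBD, against 11.53 with DMSO, and to 0.6338 in wild-type cells with CBD, against 9.304 with DMSO. The adaptor Myd88 fell in RasV12 cells, to 5.225 FPKM with CBD, against 13.31 with DMSO (adjusted p 0.0023). Mavs, through which Ifih1 signals, fell in wild-type cells, to 7.991 FPKM with CBD, against 12.57 with DMSO (adjusted p 0.030), and had 9.72 with CBD and 15.59 with DMSO in RasV12 cells (adjusted p 0.065). Tank, which binds Tbk1, fell in both lines. Ddx58 was at 11.9 FPKM with CBD and 11.92 with DMSO in RasV12 cells, and at 7.617 with CBD and 7.625 with DMSO in wild-type cells, with a standard error of the log2 ratio of 0.27 in RasV12 cells and 0.25 in wild-type cells. With the median of like transcript length subtracted, 0 of these sensing genes rose and 6 fell in RasV12 cells. Over all genes 1832 of 11070 then rose and 2205 fell. In wild-type cells 1 sensing gene rose and 5 fell, against 2386 and 2586 of 10696 genes.

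Of 8 inhibitors of the pathway tested in RasV12 cells, 2 rose and 2 fell (25% each, against 18.7% and 24.4% over all genes). Of 7 in wild-type cells, 1 rose and 3 fell (14.3% and 42.9%, against 14% and 42.4%), so these counts are near the background. Socs3, which blocks Jak kinases, rose to 85.38 FPKM in RasV12 cells with CBD, against 34.32 with DMSO (adjusted p 0.00032), and to 14.28 in wild-type cells with CBD, against 7.928 with DMSO (adjusted p 0.0020). Socs1, its relative, rose to 17.79 FPKM in RasV12 cells with CBD, against 5.994 with DMSO (adjusted p 0.0011), with 1.893 FPKM with CBD and 2.317 with DMSO in wild-type cells (adjusted p 0.65). The difference between the lines for Socs1 was 1.86 ± 0.67 (adjusted p 0.056) and did not pass. Pias1, which inhibits STAT factors, fell to 2.64 FPKM in RasV12 cells with CBD, against 6.763 with DMSO, and to 0.9733 in wild-type cells with CBD, against 5.497 with DMSO. The phosphatase Ptpn6 fell in RasV12 cells, and Ptpn1 and Pias4 in wild-type cells. With equal FPKM sums 1 inhibitor rose in RasV12 cells, against 251 of 11070 genes, and 0 in wild-type cells, against 432 of 10696. With the median of all genes subtracted 1 fell in wild-type cells, against 3285 of 10696 genes.

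Of the other antiviral effectors, which share the output of ISGF3 with Isg15, Ifit1 and Bst2, 1 rose and 7 fell of 22 in RasV12 cells (4.55% and 31.8%, against 18.7% and 24.4% over all genes). In wild-type cells 4 rose and 9 fell of 18 (22.2% and 50%, against 14% and 42.4%). Oas1a, an enzyme that activates RNase L, rose to 2.126 FPKM in RasV12 cells with CBD, against 0.3479 with DMSO (adjusted p 0.0068). It reached 1 FPKM only with CBD, at an estimated 86 fragments with CBD and 22 with DMSO. At a minimum of 3 FPKM 0 effectors rose in RasV12 cells and 4 fell, while over all genes 2032 rose and 2327 fell. Ifitm3, which blocks virus entry, rose in wild-type cells to 100.3 FPKM with CBD, against 42.45 with DMSO (adjusted p 3.5e-06), and was at 499.6 with CBD and 342.9 with DMSO in RasV12 cells (adjusted p 0.091). Ifitm2 and Xaf1 rose as well in wild-type cells. Ifit2, a relative of Ifit1, fell to 1.328 FPKM in RasV12 cells with CBD, against 2.846 with DMSO (adjusted p 0.035), and to 1.383 in wild-type cells with CBD, against 4.513 with DMSO (adjusted p 1.2e-06). Znfx1 and Samd9l fell in both lines, Ifi204 in RasV12 cells, and Zc3hav1, Trafd1 and Eif2ak2 (the kinase PKR) in wild-type cells. With equal FPKM sums 15 of the 22 effectors fell in RasV12 cells, against 4706 of 11070 genes. In wild-type cells 2 of the 18 then rose, against 432 of 10696 genes. Of the genes that attach or remove Isg15, 0 of 2 passed in RasV12 cells and 0 of 1 in wild-type cells, with 1 and 0 higher at an unadjusted p under 0.05. The 1 was Ube2l6, the conjugating enzyme, at 13.55 FPKM with CBD and 7.549 with DMSO in RasV12 cells (deposited p 0.0217). With the median of all genes subtracted 1 of these genes passed as higher in each line. Over all genes 2109 of 11070 then did in RasV12 cells and 2970 of 10696 in wild-type cells. At a minimum of 3 FPKM 1 of these genes passed as higher in RasV12 cells. Usp18 was at 1.897 FPKM with CBD and 0.9304 with DMSO in RasV12 cells (adjusted p 0.12).

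Antigen presentation genes and interferon gamma targets held rises as well as falls. Of 15 in RasV12 cells 2 rose and 2 fell (13.3% each, against 18.7% and 24.4% over all genes), and of 10 in wild-type cells 5 rose and 1 fell (50% and 10%, against 14% and 42.4%). B2m, the light chain of MHC class I, rose to 449.7 FPKM in RasV12 cells with CBD, against 178.1 with DMSO, and to 172.7 in wild-type cells with CBD, against 89.94 with DMSO. H2-K1, a class I heavy chain, rose to 42.23 FPKM in RasV12 cells with CBD, against 21.86 with DMSO, and to 16.19 in wild-type cells with CBD, against 7.205 with DMSO. Psme1 and Psme2, which activate the proteasome, rose in wild-type cells. Irgm1, an immunity-related GTPase, fell to 1.392 FPKM in RasV12 cells with CBD, against 6.255 with DMSO, and to 0.3642 in wild-type cells with CBD, against 3.356 with DMSO, and its relative Igtp fell in RasV12 cells. After subtraction of the median of like transcript length 0 rose in RasV12 cells and 2 in wild-type cells, against 1832 of 11070 and 2386 of 10696 genes. With equal FPKM sums 0 rose in RasV12 cells and 1 in wild-type cells, against 251 and 432 genes. Over all 124 other interferon genes listed, 5 rose and 27 fell of 74 tested in RasV12 cells (6.76% and 36.5%, against 18.7% and 24.4% over all genes). In wild-type cells 10 rose and 32 fell of 64 (15.6% and 50%, near the 14% and 42.4% over all genes). Their median was -0.43 in RasV12 cells and -0.56 in wild-type cells on the log2(FPKM + 1) scale, against -0.01 and -0.37 over all genes.

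**Figure D4:**
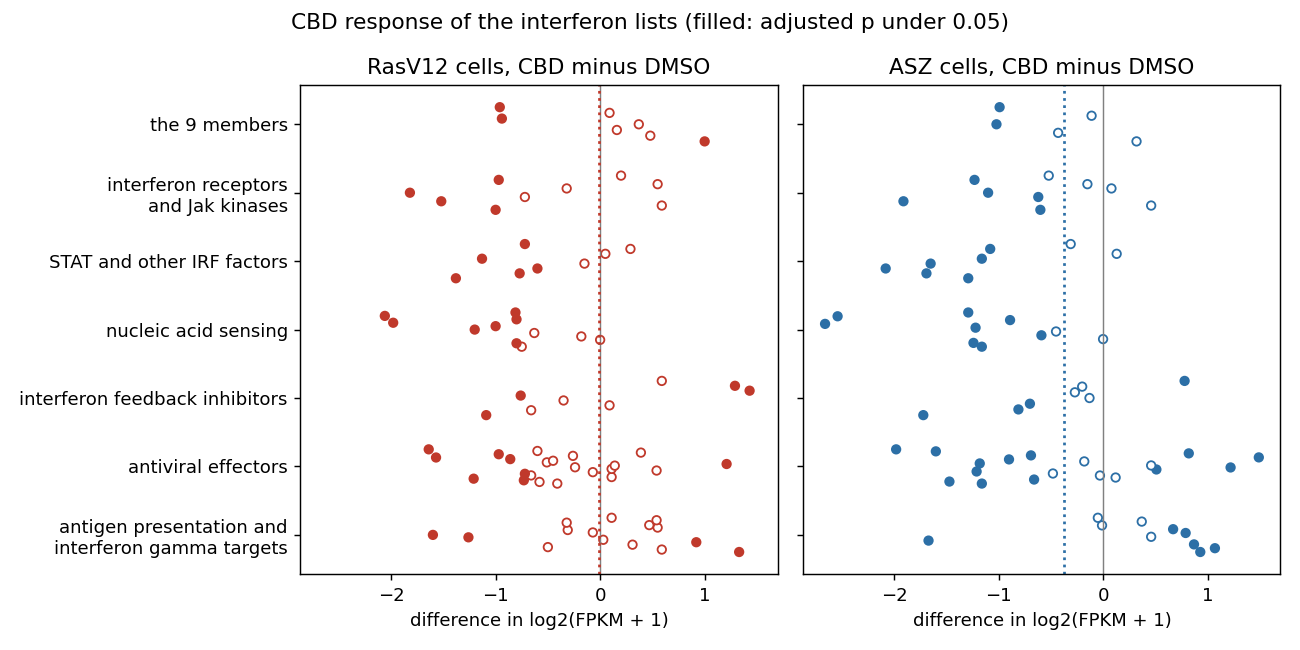
Change with CBD, as the difference in log2(FPKM + 1), of the genes of each interferon list with a test, in RasV12 (left) and wild-type ASZ cells (right); filled points have an adjusted p under 0.05, and the dotted line is the median of all genes (-0.01 and -0.37). The row of the 9 members shows the 7 and 5 with a test, and every called gene of the receptor, STAT/IRF and sensing lists lies below 0.

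Levels of the other interferon genes were compared between the lines in the same way. Of 75, 60 were higher in RasV12 cells under DMSO, that is above 0 after centring, against 5423 of 11200 over all genes. Their median was 0.42, against -0.01. At least 2-fold higher were 17 and at least 2-fold lower 0, against 427 and 249 over all genes. Under CBD 47 were above 0, at a median of 0.19, against 4357 of 11200 and -0.14. At least 2-fold higher were then 7 and lower 2, against 376 and 559 over all genes. All 15 antigen presentation and interferon gamma genes were above 0 under DMSO. Genes were used at 1 FPKM or more in any group, and some reached it only in RasV12 cells, Gbp2 among them. That choice favours a higher RasV12 level in these counts, and its part was not tested. Gbp2, a guanylate-binding protein induced by interferon gamma, was at 13.35 FPKM in RasV12 cells and 0.3317 in wild-type cells under DMSO, and at 9.111 in RasV12 cells and 0.4791 in wild-type cells under CBD. Ifitm3 was at 342.9 FPKM in RasV12 cells and 42.45 in wild-type cells under DMSO. Gbp2 was chosen for its size after its values were seen, and no test was made of any of these levels.

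**Figure D5:**
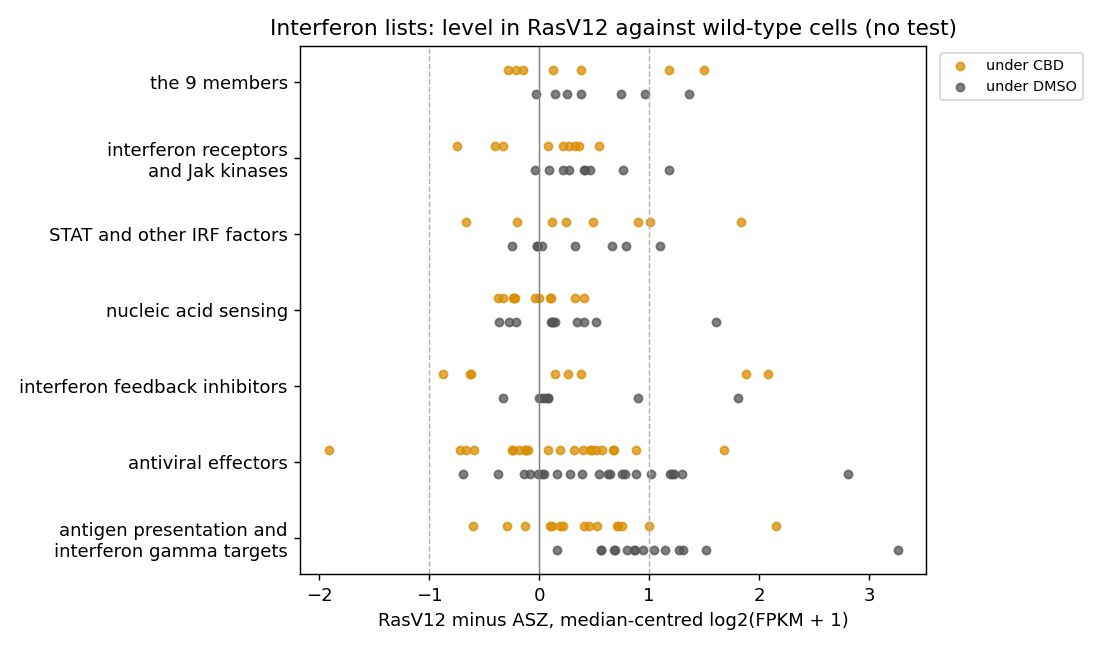
Median-centred log2(FPKM + 1) of RasV12 minus wild-type ASZ cells for the genes of each interferon list under CBD (orange) and DMSO (grey), with dashed lines at 2-fold; no test was possible. In the top row 2 of the 7 genes, Irf1 and Bst2, pass the line under CBD and 1, Irf1, under DMSO.

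The label of the cells was checked against marker lists. Krt5 and Krt14, keratins of basal keratinocytes, lay between 3408 and 6226 FPKM in all groups and passed no test. Of the 8 keratinocyte markers, 2 rose (Itgb4 and Cdh1) and 2 fell in RasV12 cells, 25% each, against 18.7% and 24.4% over all genes. In wild-type cells 1 rose (Krt17) and 3 fell, 12.5% and 37.5%, against 14% and 42.4%. These counts are near the background. Krt15 fell to 130.2 FPKM in RasV12 cells with CBD, against 274.2 with DMSO, and to 33.73 in wild-type cells with CBD, against 146.4 with DMSO. Trp63, the basal lineage factor, was at 53.22 FPKM with CBD and 91.95 with DMSO in RasV12 cells, and at 20.69 with CBD and 64.6 with DMSO in wild-type cells, both falls. Itga6 was the third to fall in wild-type cells. Of 13 leukocyte markers, which could carry interferon genes of their own, Itgam and Tyrobp were listed at 0 in all groups and Ptprc at 0.004942 FPKM or less. Their summed level was 56.99 FPKM in RasV12 cells with CBD and 35.67 with DMSO, and 18.68 with CBD and 11.16 with DMSO in wild-type cells. Most of it was Cd68, a lysosomal protein, which rose with CBD in both lines, at 53.83 FPKM with CBD and 31.74 with DMSO in RasV12 cells, and 16.54 with CBD and 8.994 with DMSO in wild-type cells. Csf1r rose in wild-type cells, at 1.249 FPKM with CBD and 0.5881 with DMSO (adjusted p 0.019), and Cd14 was at 3.185 FPKM or less with no call. Of 5 endothelial markers, Pecam1 was at 23.32 FPKM with CBD and 16.45 with DMSO in RasV12 cells (adjusted p 0.15) and fell in wild-type cells, at 9.438 with CBD and 15.3 with DMSO (adjusted p 0.016). The other endothelial markers were under 1 FPKM in every group. So were the fibroblast markers, except that Pdgfra had no value in RasV12 cells. The part of these markers in the values of the 9 genes was not tested. Depth, estimated from the smallest steps between FPKM values, was 10.8 M fragments per library (M stands for 1e6) in RasV12 cells with CBD, 16.8 with DMSO, 13.8 in wild-type cells with CBD and 14.4 with DMSO, and unequal scaling would shift these estimates.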

How the data were processed

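Total RNA went into TruSeq RNA libraries, per the labels' protocols. TopHat, Cufflinks and the mm9 build are named in the submitters' processing notes. The authors deposited, per the file headers, 1 FPKM value a group over its 2 libraries and an unadjusted p-value for CBD against DMSO. Their log2 fold changes were not used. Their estimate of each gene's spread is not given in the sources. All p-values of the RasV12 table lay on steps of 5e-05, and 554 wild-type genes had a p-value of 0. At the lowest p, implied standard errors are upper bounds. The tables were analysed separately, with Python 3.11.15 and scipy 1.17.1.

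Rows without a gene name (199 in the wild-type table) or with a date for a name (26 in each) were left out. Older symbols were replaced, and of repeated symbols the highest row was used if the others were under 10% of it. Tested genes at 1 FPKM or more were used, 11070 in RasV12 and 10696 in wild-type cells, and Benjamini-Hochberg adjusted p under 0.05 was the threshold. The standard error of a log2 FPKM ratio is its size over the normal quantile of the deposited p. Lists are summarised on log2(FPKM + 1), which understates changes of low genes. Transcript lengths are from GENCODE M21 and promoters from RefSeq on GRCm38.p6, so no coordinate was joined to mm9. The code was tested on simulated data. Members and lists were chosen with earlier results of these data known. Named genes were the 9 members, 7 pathway genes (Ifnb1, Ifnar1, Ifnar2, Jak1, Tyk2, Irf3 and Usp18), the nearest gene to each member, and up to 3 called genes a list, line and direction with the highest FPKM, some without their values. All genes of the ligand list are named, and Irf2, Ifit2 and Gbp2 were chosen after their values were seen. Some single genes are not reported here.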

Additional observations from a re-analysis of the deposited data

Results flagged for a closer look

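None of the 9 interferon response genes was marked for a difference in CBD response between the lines. Among the other interferon genes, 5 of 61 differed at an adjusted p under 0.05 and 13 before adjustment, by the normal test on implied standard errors. The log2 response of RasV12 cells minus that of wild-type cells was 1.57 ± 0.38 for Irf2bp2 (adjusted p 0.0015) and 1.73 ± 0.38 for Irf2bpl (adjusted p 0.00045). It was 1.12 ± 0.39 for Zc3hav1, an antiviral RNA-binding protein (adjusted p 0.045), and 2.24 ± 0.71 for Lgals3bp (adjusted p 0.025). For Ifi204, a DNA sensor of the interferon-inducible p200 family with near relatives in the genome, it was -1.65 ± 0.56 (adjusted p 0.042). The background was 9.23% of 10399 genes, so 5 of 61 is near it. With the median of like transcript length subtracted, the difference was 1.16 for Irf2bp2 (adjusted p 0.089), 1.18 for Irf2bpl (0.086), 0.48 for Zc3hav1 (0.82) and 1.89 for Lgals3bp (0.19). Subtracting the median of all genes gave 1.14 for Irf2bp2 (adjusted p 0.067), 0.69 for Zc3hav1 (0.46) and 1.81 for Lgals3bp (0.17), and Irf2bpl still passed. Zc3hav1 also lost its call with equal FPKM sums (adjusted p 0.077) and equal fragment mass (0.28), and Lgals3bp with equal fragment mass (0.099). Ifi204 kept its call under each of the alternatives in which it was tested.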

How the results depend on the processing

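No paired analysis was possible because the tables hold 1 value a group, and leaving out each replicate was not run for the same reason. Of the main counts and medians, 76 recomputed values stayed within 1.5 times or the error and 19 moved. Of the 76, 10 came from adding 0.1 in place of 1 to FPKM before the log. That setting cannot alter a call, so the counts of called genes among the 10 could not move. With equal FPKM sums, 251 genes were higher and 4706 lower in RasV12 cells with 0 of the 9 higher and a median of -0.33, and 432 were higher in wild-type cells with a median of -0.87. With equal fragment mass, 730 genes were higher in RasV12 cells and 0 of the 9. With the median ratio subtracted, 2970 genes were higher in wild-type cells, with 1 of the 9 higher, 1 lower and a median of -0.05. With the median of like transcript length subtracted, 2386 genes were higher and 2586 lower in wild-type cells with 0 of the 9 lower, and 0 of the 9 were higher in RasV12 cells. At 3 FPKM or more the median in RasV12 cells was -0.39. Without centring, 2 of 7 were at least 2-fold higher in RasV12 cells under DMSO and 7 of 7 above 0 under CBD. The median difference over all genes was then 0.16 under DMSO and 0.48 under CBD.

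Isg15 turned to 0.16 in wild-type cells with the median subtracted, and in RasV12 cells to -0.33 (equal sums), -0.20 (equal mass) and -0.32 (length). Bst2 turned to -0.14 (equal sums) and -0.26 (length) in wild-type cells, and passed there at 0.73 with the median subtracted. Irf1 turned to -0.41, -0.23 and -0.10 in RasV12 cells under these 3 settings, and passed as lower at -0.87 in wild-type cells with equal sums. The cause of these shifts was not tested. Depth limits Ifit3, with an estimated 18 fragments or fewer a group.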
